A study of Mus musculus with 6 samples.

Results

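The autophagy and mitophagy genes followed here in the mouse hippocampus after cerebral ischemia/reperfusion (I/R) were Ulk1, Becn1, Wipi1, Atg5, Map1lc3b, Gabarapl1, Sqstm1, Bnip3, Lamp2 and Tfeb. They were taken by gene name, 10 of the 41386 genes in the deposited table, and all 10 were among the 18569 genes with enough counts to be tested. RNA-seq libraries were made from sham-operated mice (3 libraries) and from mice given 1.5 h of middle cerebral artery occlusion with 24 h of reperfusion (3 libraries). All mice were wild type C57BL/6 animals (C57BL/6J in the study's methods) of 56 days and, per those methods, male. The artery was blocked with a filament on the left side, the sham animals had the same surgery with no filament inserted, and each library pooled several left hippocampi. The spread given below is therefore between pools of animals and not between single mice, and a pooled hippocampus mixes neurons, glia, vessels and blood cells.

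Autophagy encloses part of the cytoplasm in a double membrane, the autophagosome, which fuses with the lysosome, where its content is degraded. The ULK1 kinase complex starts the process, the class III PI3-kinase complex with Beclin 1 makes the lipid PI3P that WIPI proteins bind, and the ATG conjugation system attaches ubiquitin-like ATG8 proteins (the LC3 and GABARAP families) to the growing membrane. Cargo receptors such as p62 and BNIP3 link ubiquitinated proteins or mitochondria to ATG8, and neurons depend on this turnover because they do not dilute damaged organelles by division. Transcript levels do not measure autophagic flux, since most of the pathway is controlled through phosphorylation, lipidation and degradation of its proteins.

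Of the 10 genes, 7 were differentially expressed genes (DEGs, more than 1.2-fold higher or lower with an adjusted p below 0.05), which is 70.0% of them beside 41.8% of all genes tested. Lamp2, Tfeb and Sqstm1 were higher in I/R (21.8% of all genes tested were DEGs in that direction). Map1lc3b, Gabarapl1, Ulk1 and Bnip3 were lower (19.9% of all genes tested). Becn1, Atg5 and Wipi1 did not pass the test. The libraries of the groups did not overlap for the same 7 genes, a pattern seen in 57.4% of all genes tested. In bulk tissue, fewer cells of a type and less RNA per cell cannot be told apart, and this holds for each difference below. The changes were small: the median absolute log2 fold change of the 10 genes was 0.36, beside 0.44 over all genes tested, and 27.9% of all genes tested had a larger absolute change than Lamp2, the gene of the 10 that moved most.

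**Figure D1:**
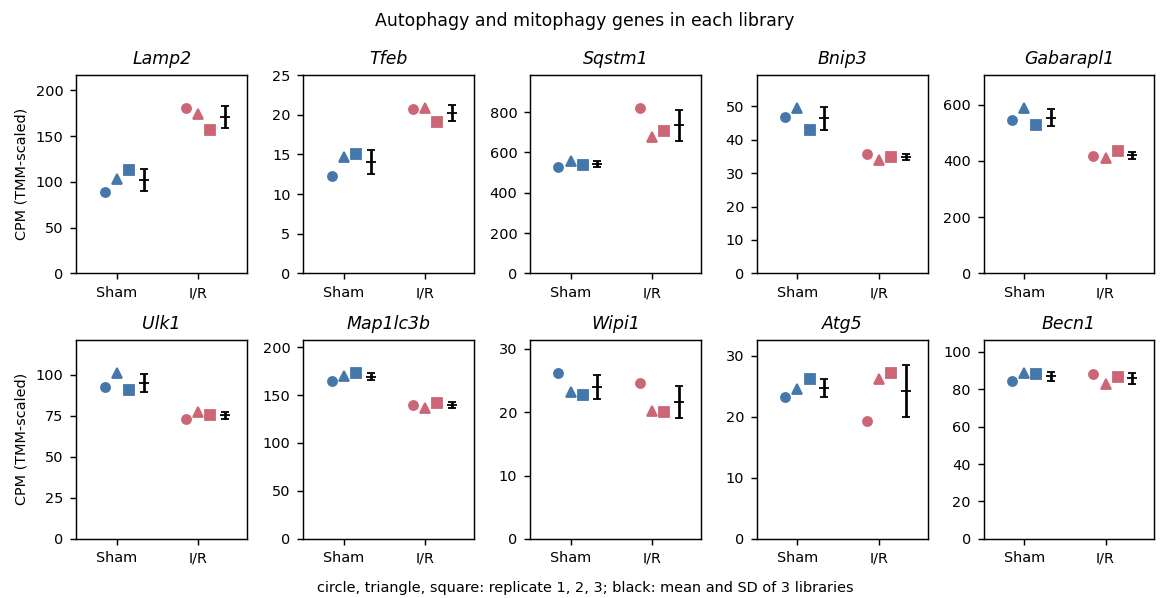
CPM (reads of the gene per 1000000 reads, scaled by TMM, linear axis from 0) of each of the 10 genes in the 3 sham (blue) and 3 I/R (red) libraries, with circles, triangles and squares for replicates 1, 2 and 3 and black marks for the mean and SD of 3 libraries. Lamp2, Tfeb and Sqstm1 had all 3 I/R libraries above all sham libraries, Bnip3, Gabarapl1, Ulk1 and Map1lc3b had all 3 below, and Wipi1, Atg5 and Becn1 overlapped.

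The depth was 37493042 to 44788547 counted reads per library. Before TMM scaling, 3 reads corresponded to 0.0670 to 0.0800 reads per 1000000. The lowest value of any of the 10 genes was far above this, at 12.3 CPM (reads per 1000000, after TMM scaling) for Tfeb in sham replicate 1. The 6 genes chosen for hippocampal neurons, such as Prox1 and Calb1, were detected in every library, and 5 were lower in I/R. They summed to 228 to 477 CPM in I/R and 754 to 789 CPM in sham. The 6 striatal markers summed to 60.4 to 84.3 CPM in I/R and 75.4 to 111 CPM in sham. Detection alone does not show that no other brain region was included. The 7 neuronal markers that could be matched were all lower in I/R (median log2 fold change -1.26), and their summed level was 1920 CPM in I/R replicate 1, against 3590 and 3940 CPM in the other I/R libraries and 7010 to 7340 CPM in sham. Markers of choroid plexus, a tissue beside the hippocampus, summed to 32.6 CPM in I/R replicate 3 and 36.4 CPM in sham replicate 1, against 1590 to 4400 CPM in the other 4 libraries. Results are therefore also given without I/R replicate 1 and without this pair of libraries. Without I/R replicate 1, 7 of the 10 genes were DEGs, 3 higher and 4 lower, as were 7976 of all genes (7756 with all libraries). Without the pair, which leaves 2 libraries a group, 1 of the 10, Lamp2, was a DEG, beside 5255 of all genes. Leaving out sham replicate 1, 2 or 3 gave 4, 3 and 4 DEGs among the 10 and 5611, 5330 and 5480 among all genes.

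Lamp2 (chrX:33129769-33184120, minus strand, BALB/cJ assembly as used in the deposited table) encodes a heavily glycosylated protein of the lysosomal membrane, 1 of whose isoforms is the receptor of chaperone-mediated autophagy. It stood at 181, 174 and 157 CPM in I/R replicates 1, 2 and 3 and at 89.3, 103 and 113 CPM in the sham replicates. The lowest I/R library was thus 44.4 CPM above the highest sham library. This was a 1.68-fold difference, 0.75 on the log2 scale (SE 0.11, adjusted p = 0.00182 by edgeR). Lamp2 remained a DEG in each of 17 other settings with the same call rule, with a log2 fold change of 0.66 to 1.01. It was not a DEG when a fold over 2 was required.

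Tfeb (chr17:47604089-47661183, plus strand) encodes the transcription factor that switches on lysosomal and autophagy genes when mTORC1 is inactive. Its CPM was 20.7, 20.9 and 19.1 in I/R against 12.3, 14.7 and 15.1 in sham. The groups were 3.97 CPM apart at their nearest libraries. On the log2 scale the difference was 0.53 (SE 0.12, adjusted p = 0.00949 by edgeR). Without the pair of libraries low in choroid plexus RNA it was 0.47 with an adjusted p of 0.0609, the 1 setting of 17 in which Tfeb was not a DEG.

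Sqstm1 (chr11:47751054-47762569, minus strand) encodes p62, the cargo receptor that binds ubiquitin and LC3, is itself degraded by autophagy, and is also a target gene of the stress factor NRF2. I/R libraries held 822, 677 and 708 CPM and sham libraries 530, 559 and 536 CPM. All I/R libraries were above all sham libraries, and replicate 1, the library with the lowest neuronal marker level, was the highest. It was 1.36-fold higher in I/R, 0.44 on the log2 scale (SE 0.12, adjusted p = 0.0212 by edgeR). The direction held in each of 17 settings (0.35 to 0.70), but Sqstm1 was not a DEG without sham replicate 1, 2 or 3 (adjusted p 0.0890, 0.0711 and 0.0915), nor without the choroid plexus pair (adjusted p = 0.142). Sqstm1 shares 15.5% of its 50-base stretches with Mrnip, named 3010026O09Rik in the deposited table, a gene that overlaps it on the opposite strand and held 248 to 323 reads per library, beside 18447 to 37409 for Sqstm1. Whether reads were counted by strand is not stated.

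The genes that were lower take part in initiation, membrane growth and mitophagy. Ulk1 (chr5:110246787-110272742, minus strand), the kinase that starts autophagosome formation, stood at 73.2, 77.3 and 75.2 CPM in I/R and 92.3, 101 and 90.9 CPM in sham. Its log2 fold change was -0.33 (SE 0.08, adjusted p by edgeR = 0.0119). The I/R libraries had an SD of 2.05 CPM and all lay below every sham library. Without sham replicate 2, the highest of the sham libraries, the log2 fold change was -0.29 and the adjusted p 0.0533.

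Map1lc3b (chr8:120117753-120126426, plus strand) encodes LC3B, the ATG8 protein used most widely as an autophagosome marker. Its CPM was 140, 136 and 142 in I/R against 165, 170 and 173 in sham, with little spread in either group. It was 1.22-fold lower, just past the limit on fold, with -0.28 on the log2 scale (SE 0.08, adjusted p = 0.0214 by edgeR). The call was lost without I/R replicate 2 or without sham replicate 1, 2 or 3 (adjusted p 0.0644, 0.0618, 0.0702 and 0.0922). Map1lc3b shares 6.01% of its 50-base stretches with 388 other annotated genes. Among these, Mpv17l shares 53 stretches and held 2004 to 4232 reads per library, and Slfn5 shares 51 and held 198 to 775. Map1lc3b itself held 5418 to 6893 reads. Gabarapl1 (chr6:127751846-127761026, plus strand), a GABARAP family protein abundant in brain, had 419, 409 and 434 CPM in I/R and 546, 589 and 527 CPM in sham. Each I/R library was at least 93.0 CPM under each sham library. Its log2 fold change was -0.40 (SE 0.11, adjusted p by edgeR = 0.0186), and its call too was lost when I/R replicate 2 or sham replicate 1, 2 or 3 was left out (adjusted p 0.0643, 0.0610, 0.0806 and 0.0530). Gabarapl1 shares 23.1% of its 50-base stretches with 1700101I11Rik, which lies over it on the opposite strand with 52 to 94 reads per library.

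Bnip3 (chr7:139589955-139605191, minus strand) encodes a receptor of the outer mitochondrial membrane that recruits ATG8 proteins, and is a well-known hypoxia-inducible gene. It stood at 35.7, 33.8 and 34.8 CPM in I/R and at 46.6, 49.5 and 42.8 CPM in sham. All 3 I/R libraries were therefore below the sham libraries. Bnip3 was 1.33-fold lower, -0.41 on the log2 scale (SE 0.09, adjusted p = 0.00838 by edgeR). Bnip3 had the largest shared part of the 10 genes, as 47.2% of its 50-base stretches occur in 6 other annotated genes. How reads with several alignments were treated is not given, so its counting is uncertain.

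The 3 genes that did not pass the test act in the middle of the pathway. Becn1 (chr11:100242147-100256171, minus strand), the Beclin 1 subunit of the class III PI3-kinase, stood at 88.2, 82.8 and 86.4 CPM in I/R and 84.2, 88.7 and 88.1 CPM in sham. Its log2 fold change was -0.02 with a 95% interval of -0.19 to 0.15 (adjusted p = 0.844 by edgeR). With TMM scaling, a fall as large as the one measured for Bnip3 lies outside that interval, and a fall of less than 0.19 does not. Becn1 shares 36.8% of its 50-base stretches with Cntd1 on the opposite strand, which held 50 to 83 reads per library.

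Atg5 (chr10:41955780-42051242, plus strand), part of the enzyme that attaches ATG8 proteins to lipid, had 19.3, 26.3 and 27.2 CPM in I/R and 23.3, 24.6 and 26.3 CPM in sham. I/R replicate 1 was the lowest of all 6 libraries and the other I/R libraries were at or above the highest sham value as rounded here. The log2 difference was -0.03 (95% interval -0.36 to 0.30, adjusted p = 0.893 by edgeR), and 0.11 without I/R replicate 1 (adjusted p = 0.373). Wipi1 (chr11:108676782-108716517, minus strand), a PI3P-binding protein of the early membrane, had 24.6, 20.2 and 20.1 CPM in I/R and 26.2, 23.2 and 22.7 CPM in sham. Replicate 1 was the highest in both groups, and the groups overlapped. The difference was -0.15 on the log2 scale (95% interval -0.43 to 0.12, adjusted p = 0.343 by edgeR).

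How far the lower genes fell depended on how libraries were scaled. TMM, which scales each library so that most genes do not differ, gave factors of 1.06 to 1.15 to the I/R libraries and 0.908 to 0.920 to sham, and set the median log2 fold change of all genes tested at 0.03. With library size alone that median was 0.28. Lamp2, Tfeb and Sqstm1 then had log2 fold changes of 1.01, 0.79 and 0.70 and were DEGs. Bnip3, Gabarapl1, Ulk1 and Map1lc3b had -0.16, -0.14, -0.07 and -0.03, kept their sign, and were not DEGs (adjusted p 0.232, 0.268, 0.453 and 0.810). The signs of Becn1, Atg5 and Wipi1 turned to 0.24, 0.22 and 0.11. For Becn1 the adjusted p by edgeR was then 0.0466, but its fold change was under the limit of 1.2. The calls of Lamp2, Tfeb and Sqstm1 thus held under both scalings, and those of the 4 lower genes held under TMM but not per counted read.

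**Figure D2:**
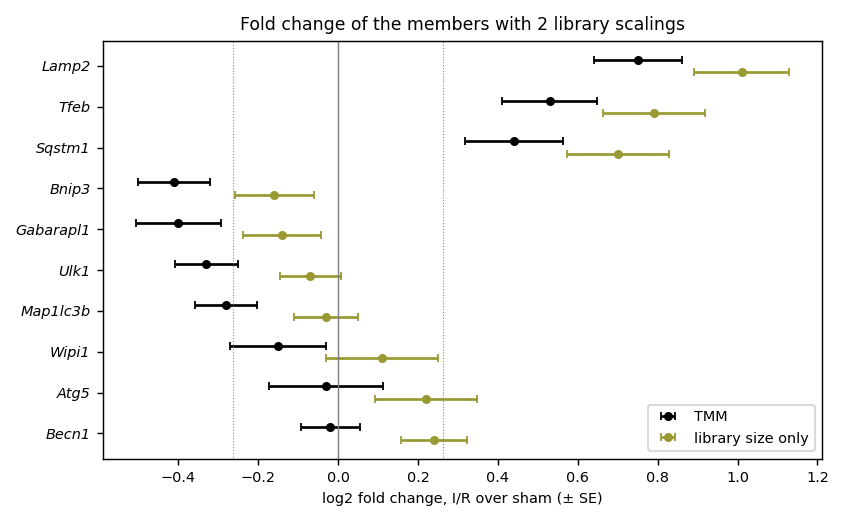
Log2 fold change (I/R over sham) with its SE for the 10 genes, scaled by TMM (black) and by library size alone (olive), with dotted lines at a fold change of 1.2 in either direction. With library size alone every gene lay further to the right, and Bnip3, Gabarapl1, Ulk1 and Map1lc3b moved inside the dotted lines while Lamp2, Tfeb and Sqstm1 stayed outside.

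Ratios of read counts within a library do not depend on this scaling. Where Sqstm1, Lamp2 or Tfeb is set over Map1lc3b, Gabarapl1 or Ulk1, separate ratios follow from the CPM values above. Such a ratio does not tell which of its genes changed, so it is no further test of the lower genes. There were 5.86, 5.0 and 4.99 Sqstm1 reads for each Map1lc3b read in the I/R libraries, whereas sham libraries had 3.21, 3.29 and 3.09. Lamp2 reads per Map1lc3b read numbered 1.29, 1.29 and 1.11 after I/R, compared with 0.541, 0.608 and 0.651 after sham surgery, so the lysosomal membrane gene passed the ATG8 gene in read number in every I/R library and in no sham library. Tfeb over Ulk1 was 0.283, 0.270 and 0.253 in I/R against 0.133, 0.146 and 0.166 in sham. The ratio of Map1lc3b to Becn1, genes that act near each other, was 1.59, 1.64 and 1.64 in I/R against 1.96, 1.91 and 1.97 in sham. The pair of ATG8 genes kept overlapping ratios, with 2.99 to 3.06 Gabarapl1 reads per Map1lc3b read in I/R and 3.04 to 3.48 in sham. Of all reads of the 10 genes, Sqstm1 took 40.9% to 45.0% in I/R and 32.4% to 32.8% in sham.

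**Figure D3:**
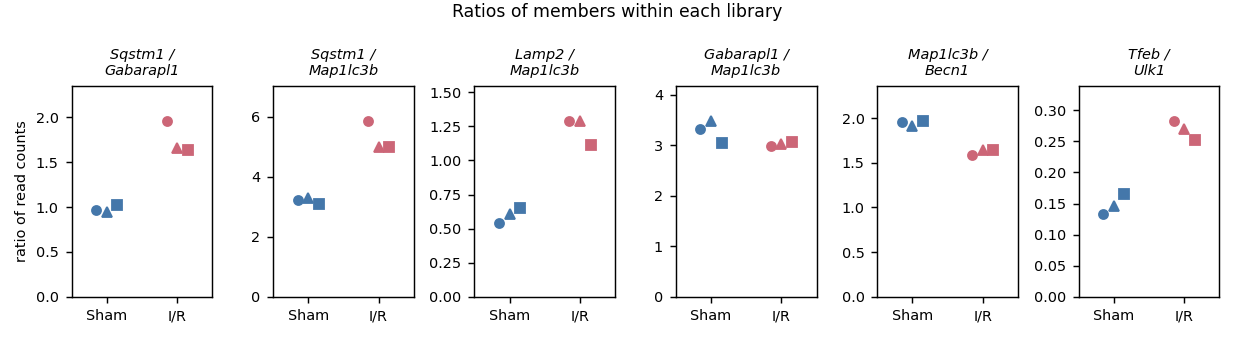
Ratio of the read counts of 2 of the genes within each library (linear axes from 0) for 3 sham (blue) and 3 I/R (red) libraries, with circles, triangles and squares for replicates 1, 2 and 3. The groups were apart for Sqstm1 over Gabarapl1, Sqstm1 over Map1lc3b, Lamp2 over Map1lc3b, Map1lc3b over Becn1 and Tfeb over Ulk1, and overlapped for Gabarapl1 over Map1lc3b.

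Levels between genes were compared per length. In sham, deposited FPKM ran from Sqstm1 (406 ± 8.18, SD, n = 3) and Gabarapl1 (281 ± 14.4) through Bnip3 (89.6 ± 6.03), Becn1 (69.2 ± 1.64), Ulk1 (66.8 ± 3.23), Map1lc3b (52.2 ± 1.22) and Lamp2 (35.6 ± 4.08) to Tfeb (13.0 ± 1.35), Wipi1 (12.9 ± 1.08) and Atg5 (9.61 ± 0.59). The neighbours Becn1 and Ulk1, and Tfeb and Wipi1, overlapped in their libraries. In I/R, Lamp2 reached 71.5 ± 7.98 FPKM and overlapped Bnip3 (80.4 ± 5.77). The order depended on the gene length used, since the length behind the FPKM was 1222 bases for Sqstm1 and 1296 for Ulk1 whereas the table's length column gave 2673 and 5193. Per kilobase of the length column, Gabarapl1 (308 CPM per kb) was above Sqstm1 (203) in sham, whereas Sqstm1 (275) was above Gabarapl1 (234) in I/R.

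Promoters were searched because TFEB, whose own transcript was higher, binds the E-box CACGTG within the CLEAR element of lysosomal genes, and because HIF binds ACGTG or GCGTG in genes such as Bnip3. RefSeq promoters on GRCm38.p6 (250 bases before to 50 after the start) were found for 9 of the 10 genes, not for Becn1, with 11 promoters in all. CACGTG, read on both strands and containing ACGTG, occurred in those of 2 of the 9 genes, beside 8.09% of all 27025 genes with such promoters. These were Bnip3, 108 bases before its start, and Atg5, 14 bases before. None of the windows of Lamp2, Sqstm1 or Tfeb, the genes that were higher, held these letters, which says nothing of sites elsewhere. The stretches with the match are shown on the strand of the gene, with the E-box in capitals, for Bnip3 at chr7:138909582-138909641 (minus strand) and for Atg5 at chr10:44268279-44268338 (plus strand):
Bnip3: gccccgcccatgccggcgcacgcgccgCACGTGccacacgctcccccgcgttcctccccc
Atg5: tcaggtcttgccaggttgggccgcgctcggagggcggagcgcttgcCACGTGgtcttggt
GCGTG occurred in windows of 7 of the 9 genes (35.2% of all genes) and ACGTG in 2 of the 9 (21.8% of all genes), in both as part of the E-box. The antioxidant response core TGACNNNGC occurred in Map1lc3b alone among the 9 (14.0% of all genes), and not in the Sqstm1 window. Sites outside the windows were not searched for any of these motifs.

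Next, the 10 genes were placed among 134 tested genes of the pathway in 13 lists by role. Of these, 31 were higher and 34 lower (48.5% DEGs beside 41.8% of all genes tested, median log2 fold change -0.11 beside 0.03). The counts of single lists below are to be read against the 21.8% of all genes tested that were higher and the 19.9% that were lower. With library size alone 45 were higher and 13 lower, and without the choroid plexus pair 18 and 18. Leaving out sham replicate 1 or 2 left 43 and 42 DEGs in place of 65. Without the 10 genes themselves, 28 of 124 were higher and 30 lower.

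**Figure D4:**
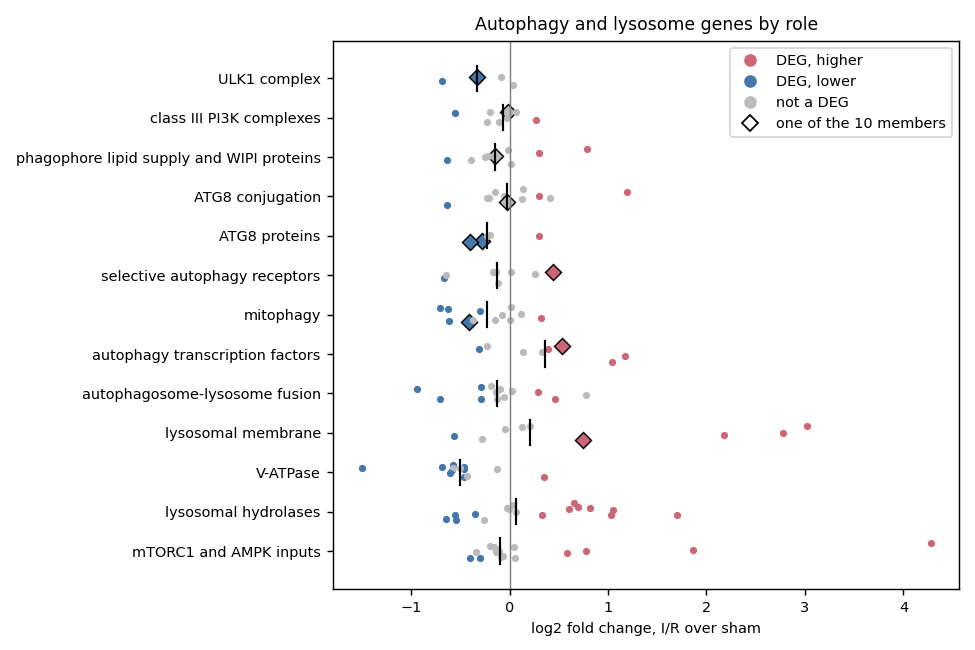
Log2 fold change (I/R over sham, TMM) of each tested gene in the 13 lists, with DEGs in red (higher) or blue (lower), other genes in grey, diamonds for the 10 genes and a black bar at the median of each list. Of the 31 higher genes, 8 were hydrolases, and 4 each were transcription factors, lysosomal membrane proteins and nutrient-signaling genes, and 8 of the 13 V-ATPase genes were lower.

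At the start of the pathway, 3 of 5 genes of the ULK1 complex were lower and 0 higher (1 and 1 with library size alone, 1 and 0 without the choroid plexus pair). Ulk2, the paralog of Ulk1, had a log2 fold change of -0.69 (SE 0.10, adjusted p by edgeR = 0.00203), with 73.3, 92.3 and 91.1 CPM in I/R and 140, 137 and 136 CPM in sham, and Atg13, the scaffold of the kinase, -0.34. Of 8 class III PI3-kinase genes, Pik3c3, the catalytic subunit that binds Beclin 1, was lower (-0.55) and Ambra1 higher (0.27). Among 9 lipid supply and WIPI genes, Vmp1, a scramblase of the endoplasmic reticulum, was higher (0.79, 110, 111 and 109 CPM in sham and 194, 185 and 191 CPM in I/R). Wdr45b, related to Wipi1, was higher (0.30), and Atg9a, which brings lipid vesicles to the growing membrane, was lower (-0.64).

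In the conjugation list 2 of 11 genes were higher and 1 lower, with Atg4a (1.19) and Atg3 (0.30) higher and Atg4c (-0.64) lower. With library size alone 5 were higher and 0 lower, and without the choroid plexus pair 1 and 0. Gabarap differed in direction from Gabarapl1 within the 5 ATG8 genes. It had 176, 182 and 180 CPM in I/R and 144, 153 and 140 CPM in sham (0.30, SE 0.08, adjusted p by edgeR = 0.0203), and was a DEG in 9 of 17 other settings. Of 8 cargo receptors, Sqstm1 was the 1 that was higher, and Calcoco1, a receptor for the endoplasmic reticulum and Golgi, was lower (-0.67).

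Mitophagy genes were lower in 5 of 12 and higher in 1 (2 and 2 with library size alone, 2 and 0 without the choroid plexus pair). Pink1, the kinase that marks damaged mitochondria, fell with Bnip3, from 387, 405 and 377 CPM in sham to 224, 229 and 259 CPM in I/R (-0.71, SE 0.10, adjusted p by edgeR = 0.00170). Fkbp8, another ATG8-binding receptor of mitochondria, was lower by the same measure (-0.63), and Phb2, an inner membrane protein, was higher (0.32). Pink1 and Fkbp8 were DEGs in each of 17 settings.

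Among 8 transcription factors, 4 were higher and 1 lower (5 and 0 with library size alone, 2 and 0 without the pair). Beside Tfeb these were Nfe2l2, which encodes NRF2 (1.17), Atf4, the effector of the integrated stress response (1.04), and Zkscan3, a repressor of autophagy genes (0.39, adjusted p by edgeR = 0.0187), while Foxo3 was lower (-0.31). Zkscan3 was named after its values were seen, to complete the count. Nfe2l2 stood at 46.8, 32.6 and 29.1 CPM in I/R and 16.3, 16.2 and 15.6 CPM in sham, highest in the same I/R library as Sqstm1. Sesn2 and Trib3, known targets of ATF4 that restrain mTORC1 and AKT, had log2 fold changes of 1.86 and 4.28 and were among 4 of 16 nutrient-signaling genes that were higher, whereas Mtor (-0.40) and Tsc2 (-0.30) were the 2 that were lower.

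With Lamp2, 4 of 9 lysosomal membrane genes were higher and Tmem175 was lower (-0.56), beside 6 higher and 0 lower with library size alone. Gpnmb and Cd68, which are abundant in phagocytes, had the largest differences of the list, with log2 fold changes of 3.02 and 2.78 (edgeR adjusted p 0.000280 and 0.000375). Of 17 hydrolase genes and cofactors 8 were higher and 4 lower (9 and 2 with library size alone, 6 and 2 without the pair), led by Ctsl (1.70) and Gusb (1.05) and by Psap (-0.65) and Glb1 (-0.55). Of 13 subunits of the V-ATPase, the proton pump that acidifies the lysosome and synaptic vesicles, 8 were lower and 1, Atp6v1h, higher (0.35). With library size alone 3 were lower and 1 higher, and without the choroid plexus pair 6 and 0. Atp6v1g2, a subunit enriched in neurons, fell furthest, from 648, 682 and 628 CPM in sham to 137, 244 and 310 CPM in I/R (-1.50), and Atp6v0a1 had -0.69. In the fusion list, 4 of 13 were lower and 2 higher (2 and 3 with library size alone, 2 and 1 without the pair), with Tecpr1 (-0.94) and Vps41 (-0.71) lower and Plekhm1 (0.46) and Snap29 (0.29) higher. Of the 36 genes named from the lists beside the 10, 20 were DEGs in each of 17 other settings. Those among them that were lower were Ulk2, Pik3c3, Atg9a, Calcoco1, Pink1, Fkbp8, Tecpr1, Vps41, Atp6v1g2 and Atp6v0a1, and those that were higher were Vmp1, Atg4a, Nfe2l2, Atf4, Gpnmb, Cd68, Ctsl, Gusb, Trib3 and Sesn2. With library size alone Atg13, Atg4c, Foxo3, Tmem175, Glb1, Mtor and Tsc2 lost their calls. Without the choroid plexus pair 13 genes lost theirs. These were Atg13, Ambra1, Wdr45b, Atg3, Atg4c, Gabarap, Phb2, Foxo3, Plekhm1, Snap29, Atp6v1h, Psap and Tsc2. Leaving out 1 library ended the call of 13 genes, namely Atg13, Ambra1, Wdr45b, Atg3, Atg4c, Gabarap, Phb2, Foxo3, Plekhm1, Snap29, Tmem175, Atp6v1h and Tsc2, with 10, 11 and 11 lost without sham replicate 1, 2 or 3 and 2, 9 and 5 without I/R replicate 1, 2 or 3.

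Cell type markers moved in the same comparison, and their part in the results on the 10 genes was not tested. Monocyte and macrophage markers, of which Cd68 is also 1 of the lysosomal genes, were higher in 5 of 6 and summed to 302, 145 and 144 CPM in I/R and 15.1 to 18.8 CPM in sham. Endothelial markers were higher in 6 of 6 (318 to 532 CPM in I/R and 192 to 194 in sham), and neutrophil markers in 2 of 4 tested (9.36 to 37.8 CPM and 4.27 to 5.56 CPM), with Ly6g at 0 in 5 of 6 libraries. Microglial markers were split, with 3 of 6 higher and 2 lower (232 to 323 CPM and 219 to 249 CPM). Astrocyte markers were also split, with 2 of 6 higher and 3 lower (4280 to 4560 CPM and 4310 to 4660 CPM), and oligodendrocyte markers were lower in 3 of 6 (4780 to 5380 CPM and 6050 to 7510 CPM). I/R replicate 1 had the lowest neuronal and the highest macrophage sum. In that library Lamp2, Sqstm1, Bnip3, Becn1 and Wipi1 were highest of the 3 I/R libraries, and Ulk1 and Atg5 were lowest.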

How the data were processed

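RNA-seq of 6 hippocampal libraries (3 sham, 3 I/R) was deposited as 1 table. Sample titles gave the groups and replicate numbers. According to the study's methods, the authors aligned reads with TopHat 2 and counted them per gene with HTSeq, whereas the submitters' processing notes name Bowtie 0.12.2 and the mouse build mm8. The deposited counts are raw read counts. The deposited FPKM were computed by the authors from those counts, a gene length and the library size. The length behind them was within 2% of the table's length column for 28.2% of 13705 genes with over 50 counts in every library. Identifiers were those of the BALB/cJ annotation although the mice are C57BL/6 (C57BL/6J in the methods), so reads were counted against another strain. Strand and multiple alignment handling are not given in the sources used here. The authors' fold change and p-value columns, which hold their own comparison, were not used. After 4 broken lines of the 41390 in the table were rejoined, it held 41386 genes.

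The count test was edgeR 4.0.16, run in R 4.3.3 (filterByExpr, TMM, robust quasi-likelihood test, Benjamini-Hochberg adjustment over 18569 genes). DEGs were more than 1.2-fold apart with an adjusted p below 0.05. SE was the absolute log2 fold change over the square root of F, and 95% intervals used the t distribution with the degrees of freedom of that test. With 3 libraries a group, an exact two-sided permutation test of 1 gene cannot go below 0.1. The 7 DEGs among the 10 genes had that smallest value. The fit was also run on simulated counts in which a far smaller share of genes changed, equally in both directions. That run therefore cannot speak to the dependence on scaling or to the calls of the 10 genes. For single genes, 17 other settings were used with the same call rule. These were other scalings and filters, leaving out libraries, a replicate block and DESeq2 1.42.0. Further ones used limma 3.58.1 (voom, and FPKM with a pseudocount of 1 or 0.1). Counts of DEGs were also made with a fold over 2 and with an unadjusted p. The 10 genes and all gene lists were chosen with earlier results of these data known. In each list the text names the DEGs with the 2 largest rises and 2 largest falls at a mean of at least 1 CPM. Of 139 pathway symbols, 135 were matched and the rest were not analysed here. Shared 50-base stretches were computed on GENCODE M21 transcripts.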

Additional observations from a re-analysis of the deposited data

How the results depend on the processing

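The 10 genes held 7 DEGs, and also 7 by DESeq2, limma-voom or an unadjusted p, but 3 with library size alone or FPKM (pseudocount 1 or 0.1; 3 higher, 0 lower), 1 without the choroid plexus pair, 4 with the replicate block, 0 at a fold over 2, and 3 to 7 with 1 library left out. All genes tested gave 7756 DEGs (4054 higher, 3702 lower), 8361 with library size alone (6334 and 2027) and 2760 at a fold over 2. The pathway lists gave 65, 37 without the pair (1 of them, Atp6v0d2, not tested with 6 libraries), 12 at a fold over 2 (11 higher) and 42 to 67 with 1 library left out.

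Log2 fold changes with both FPKM settings (pseudocount 1, then 0.1) were -0.03 and -0.03 for Map1lc3b, -0.14 and -0.14 for Gabarapl1, -0.07 and -0.07 for Ulk1 and -0.15 and -0.16 for Bnip3, none of them DEGs, and with library size alone -0.03, -0.14, -0.07 and -0.16. The sign turned for Becn1 (0.24 with library size alone, 0.01 with the upper quartile or at least 10 counts in every library, 0.23 and 0.23 with FPKM), Atg5 (0.22, 0.19 and 0.21) and Wipi1 (0.11, 0.09 and 0.10); these 3 were not DEGs in any of the 17 settings. Map1lc3b was at -0.26 with the upper quartile or at least 10 counts in every library, under the limit on fold. Without the pair the values were 0.44 for Sqstm1, -0.33 for Map1lc3b, -0.44 for Gabarapl1, -0.36 for Ulk1, -0.42 for Bnip3 and 0.47 for Tfeb, and their calls were lost.

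With 1 library left out the ranges were 0.66 to 0.82 for Lamp2, 0.44 to 0.58 for Tfeb, 0.35 to 0.48 for Sqstm1, -0.48 to -0.37 for Bnip3, -0.45 to -0.36 for Gabarapl1, -0.37 to -0.29 for Ulk1, -0.32 to -0.27 for Map1lc3b, -0.26 to -0.09 for Wipi1, -0.15 to 0.11 for Atg5 and -0.05 to -0.01 for Becn1. The labels do not say whether the replicate numbers pair libraries. Deviations of same-numbered libraries correlated at -0.10, 0.06 and -0.18, beside -0.17 to 0.27 for differently numbered ones. Such values cannot show whether libraries were handled as pairs. With the replicate block Sqstm1 was at 0.44, Map1lc3b at -0.28 and Gabarapl1 at -0.40 without a call (adjusted p 0.0694, 0.0776 and 0.0711). The cause of these changes was not tested.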

Other observations

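The deposited annotation offers a broader list, the 306 genes whose Gene Ontology text holds a term on autophagy or mitophagy. Of its 290 tested genes, 72 were higher and 71 lower in I/R (49.3%, beside 41.8% of all genes tested), with a median log2 fold change of -0.05. With library size alone the same list gave 112 higher and 29 lower, and without the choroid plexus pair 49 and 42. Its summed level was 26100 to 27100 CPM in I/R and 26900 to 27500 CPM in sham, so the ranges overlapped.

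The 17 genes of the hydrolase list did not all move together, with 8 higher and 4 lower, although all its cathepsins were higher. Ctsb and Ctsd, abundant lysosomal proteases, were named after their values were seen. Ctsd stood at 876, 614 and 599 CPM in I/R and 334, 414 and 436 CPM in sham (log2 fold change 0.82, adjusted p by edgeR = 0.00929). Ctsb stood at 1130, 853 and 895 CPM in I/R and 600, 659 and 634 CPM in sham (0.60, adjusted p = 0.0119). Both were highest in I/R replicate 1, as were Lamp2 and Sqstm1. Psap, which encodes the precursor of saposin cofactors, went the other way, from 1690, 1960 and 1940 CPM in sham to 1170, 1230 and 1180 CPM in I/R. Without the choroid plexus pair Psap was not a DEG (adjusted p by edgeR = 0.0513).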
